A study of Mus musculus with 6 samples.

Results

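Group 2 innate lymphoid cells (ILC2s) are tissue-resident lymphocytes that release type 2 cytokines without antigen receptors, and they can take up fatty acids from outside, keep them as triglyceride in lipid droplets and draw on them later. The genes described here, chosen by name as genes of this route, were Pparg, Cd36, Fabp5, Scd2, Acsl4, Dgat1, Dgat2, Plin2 and Cpt1a, and each was found once among the 55394 genes of every library, so that 9 of 55394 genes are described. They were measured by SMART-seq, a full-length cDNA method for few cells, in 6 libraries of 1000 sorted lung ILC2s each. The 3 Abx libraries came from neonates whose dams drank a cocktail of ampicillin, metronidazole, neomycin and vancomycin from gestation day 10 to 14, and the 3 Con libraries came from neonates of dams without it. Animals of both groups were C57BL/6 wild-type mice, and the ILC2s were sorted as lineage-negative cells positive for CD45, CD90.2 and CD25. The age of the neonates behind these libraries was not given in the sources used here beyond that word. Nothing says whether the libraries of a group came from separate animals, so the p-values below measure only the spread between libraries.

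Fatty acids enter a cell through the scavenger receptor CD36 and are carried in the cytosol by binding proteins such as FABP5. Acyl-CoA synthetases such as ACSL4 activate them, desaturases such as SCD2 insert a double bond, and DGAT1 and DGAT2 join them to diglyceride in the last step of triglyceride synthesis. The droplet that stores the triglyceride is coated by perilipins such as PLIN2, and CPT1A governs the entry of long-chain fatty acids into mitochondria for oxidation. PPARγ, a nuclear receptor that binds fatty acids, pairs with an RXR receptor on DNA at direct repeats of a short element and is known to drive several of these genes.

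Since Plin2 was the one gene of the set whose groups did not overlap, its upstream sequence is shown. RefSeq starts on GRCm38.p6 were given for Plin2, Cd36, Acsl4, Cpt1a and Pparg, that is for 5 of the 9 genes and for 7 start windows of 250 bases, while Fabp5, Scd2, Dgat1 and Dgat2 had none in the table used. The 249 bases before the first exon of Plin2, at chr4:86670061-86670309 on the minus strand, read 5′ to 3′ as below, with the element AGGTCA in capitals as its reverse complement.
Plin2: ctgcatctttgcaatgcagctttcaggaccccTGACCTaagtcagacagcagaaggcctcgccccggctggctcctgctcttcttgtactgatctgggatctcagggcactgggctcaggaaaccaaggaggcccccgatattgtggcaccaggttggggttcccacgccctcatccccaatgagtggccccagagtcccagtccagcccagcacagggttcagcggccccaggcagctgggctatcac

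AGGTCA, a single element of the pair that PPARγ and RXR bind, was searched on both strands and lay in 5 of the 7 windows, in those of Plin2, Cd36, Cpt1a and 2 of the 3 starts of Pparg, against 14.0% of all 32851 windows of the same length. Those of Cd36 (chr5:17836107-17836136, minus strand) and Cpt1a (chr19:3323195-3323224, plus strand), outside annotated exons, are shown with the bases around them for comparison with Plin2.
Cd36: ctctgcactttaTGACCTgagattttcagg
Cpt1a: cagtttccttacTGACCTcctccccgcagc
The direct repeat of AGGTCA with 1 base between its copies was in none of the 7 windows and in 0.0335% of all windows. The sterol element TCACNCCAC was in none of the 7 and in 1.05% of all. In all, 9 motifs were searched. The CAAT box lay in 5 of the 7 windows, against 33.8% of all windows. The GC box also lay in 5 of the 7, against 32.7% of all. The same count of 5 was thus seen for other motifs, but against unlike shares of all windows, and 3 of the 7 windows belong to Pparg. Enrichment of any motif was not tested. The matches to AGGTCA in the 2 Pparg windows, with the bases around them, overlapped annotated exons. A match is a description of the letters only.

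The libraries of the series differed in ways that bear on every value below. Genes at 1 FPKM (fragments per kilobase of exon, scaled to the mapped fragments of the library) or more numbered 8574 to 9203 in Con and 7074 to 8193 in Abx. Pairs of libraries correlated across genes at r of 0.805 to 0.846 within Con but at 0.655 to 0.690 within Abx. Pairs of a Con and an Abx library correlated at 0.674 to 0.766. Abx2 correlated at 0.727 to 0.766 with the Con libraries, but at 0.689 with Abx1 and 0.690 with Abx3. Genes under 1 FPKM in a single library while at 10 FPKM or more in the other 5 numbered 5 to 18 per Con library and 33 to 108 per Abx library. The 13 ILC2 markers summed to 2078 to 2350 FPKM across Con, against 1198 to 1503 FPKM across Abx, and 11 of them, Gata3, Rora and Areg among them, were at 1 FPKM or more in all libraries. Of the 13, 5 lay lower in every Abx library than in every Con library, Areg, Arg1 and Icos with the bulk of the sum among them, and 1, Ptprc, lay higher. Il1rl1, the receptor chain for IL-33, reached at most 2.94 FPKM. The sort removed B and T cells, yet 10 B cell markers summed to 453 to 612 FPKM across the 3 Con libraries and 1486 to 1836 FPKM in the 3 Abx libraries, and 10 T cell markers to 130 to 156 FPKM and 310 to 319 FPKM. Of the B cell markers 5 lay higher and 2, Cd79b and Cd22, lower in every Abx library than in every Con library, and of the T cell markers 3 lay higher and 0 lower. The lineage mix of the sort also held an antibody against erythroid cells. Even so, 5 erythroid markers summed to 6418 to 14823 FPKM across Con and 3166 to 8659 FPKM across Abx, with overlap. Of these, Hbb-bt lay lower in every Abx library than in every Con library. The part of B, T or erythroid cells in the results below was not tested.

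All 9 genes reached 1 FPKM in at least 3 of the 6 libraries and were tested with 8718 genes in all. None was called at a fold change over 2 with a Benjamini-Hochberg adjusted p under 0.05 (limma on log2(FPKM + 1)), where 0.0574% of all genes tested were called in either direction, 0.0459% higher and 0.0115% lower in Abx. At an unadjusted limma p under 0.05, 1 of the 9 was lower in Abx, against 6.25% of all genes, and 0 were higher, against 4.74%. The fitted difference was below 0 for 6 genes, against 53% of all genes tested, and above 0 for 3. Its median was -0.75 against -0.06 over all genes tested, and the 95% interval held 0 for 8 of the 9. With 3 libraries against 3, the exact permutation test of a single gene cannot give a p below 0.1.

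**Figure D1:**
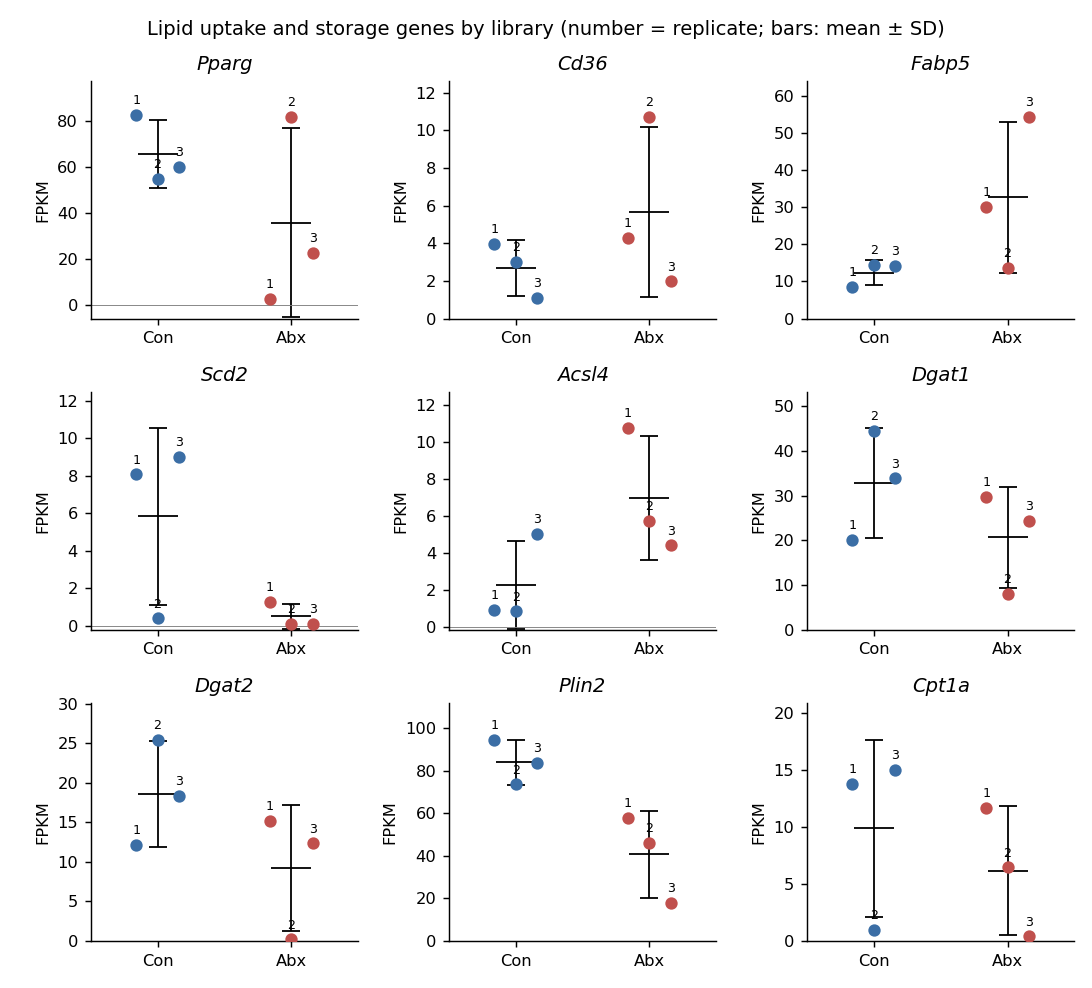
FPKM (y axis, linear, a separate scale per gene) of the 9 genes in the 3 Con and 3 Abx libraries. Points are libraries with their replicate number, and bars give the mean and SD. Plin2 alone shows every Abx library under every Con library (at most 57.9 against at least 73.6 FPKM), as did 8.73% of all genes tested. Pparg in Abx runs from 2.86 to 81.8 FPKM.

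In Con, the genes ordered by mean FPKM as Plin2, Pparg, Dgat1, Dgat2, Fabp5, Cpt1a, Scd2, Cd36 and Acsl4. Plin2 ranked first and Pparg second in each Con library. The ranges of neighbours in this order overlapped at every step but that from Pparg, at 54.8 FPKM or more, to Dgat1, at 44.5 FPKM or less. FPKM is per length of transcript, so that levels can be set side by side between genes, but the number of reads behind them is unknown.

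Pparg, the lipid-sensing receptor (GRCm38, chr6:115360951-115490399, plus strand), was at 82.5, 54.8 and 60.0 FPKM in Con1 to Con3 and at 2.86, 81.8 and 22.7 FPKM in Abx1 to Abx3. Con was narrow, at 65.8 ± 14.7 FPKM (SD, n = 3), whereas the Abx libraries spread over a 28.6-fold range, with Abx2 as high as Con1 and Abx1 near the bottom of the detected genes (percentile 13.1 of genes at 1 FPKM or more, against 86.2 to 91.1 in Con). The difference of mean log2(FPKM + 1), Abx minus Con, was -1.74 with a SE of 0.99 and a 95% interval from -4.04 to 0.55 (limma adjusted p = 0.594). Without Abx1 it was -0.57 and without Abx2 it was -2.78, so that 1 library moved it by more than 1.5 times either way. In a bulk sample, fewer cells that carry a transcript and less of it per cell cannot be told apart. Of the other PPAR receptors, Ppara was listed at 0 and Ppard at most 0.04 FPKM in all libraries, so that Pparg was the one PPAR gene above 1 FPKM.

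The RXR partners stood lower in most Abx libraries than in Con, without passing the test. Rxra, which encodes RXRα, was at 15.6, 4.85 and 4.41 FPKM in Con1 to Con3, against 0.34, 0.12 and 0.20 FPKM in Abx1 to Abx3, a difference of -2.73 with a SE of 0.68 on the log2(FPKM + 1) scale (limma adjusted p = 0.141). Rxra passed the filter on low values through Con alone. Rxrg (RXRγ) was at 46.2, 31.1 and 20.3 FPKM across Con, against 1.08, 5.37 and 10.8 FPKM across Abx, a difference of -2.57 (limma adjusted p = 0.201). The groups did not overlap for either gene, with Abx below Con, as in 8.73% of all genes tested. Rxrb (RXRβ) was at 16.7, 9.25 and 8.17 FPKM across the 3 Con libraries and 0.13, 0.06 and 16.8 FPKM in the 3 Abx libraries, where the groups overlapped through Abx3. Rxrg and Rxrb were chosen for mention after their values were seen, as the remaining partners of Pparg.

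For Cd36 and Fabp5, at the entry of fatty acids, the fitted differences were above 0 without passing the test. Cd36 (chr5:17781690-17888801, minus strand) was low, at 3.97, 2.99 and 1.08 FPKM in Con1 to Con3, against 4.29, 10.7 and 1.98 FPKM in Abx1 to Abx3. Its groups overlapped, with Abx2 the highest library, and its difference was 0.72 with a SE of 0.81 and a 95% interval from -1.17 to 2.61 on the log2(FPKM + 1) scale (limma adjusted p = 0.812). It was 0.20 without Abx2, 0.35 without Con3 and 1.19 without Abx3. Fabp5 (chr3:10012548-10016607, plus strand) was at 8.53, 14.5 and 14.1 FPKM across Con, against 30.1, 13.7 and 54.2 FPKM across Abx, so that Abx1 and Abx3 lay above all Con libraries and Abx2 among them. Its difference was 1.17 with a SE of 0.58 and an interval from -0.18 to 2.52 (limma adjusted p = 0.532), and without Abx3 it was 0.71. Of the exon sequence of Fabp5, 4.42% of 50-base stretches also occur in other annotated genes, processed copies among them, and how such reads were shared out was not given.

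Fabp4, the close relative of Fabp5 that adipocytes and macrophages use, was at 1.04, 2.02 and 1.77 FPKM across the 3 Con libraries and 6.71, 2.43 and 2.80 FPKM in the 3 Abx libraries (difference 0.85, limma adjusted p = 0.711), without overlap. Abx1 was also highest for the adipocyte hormones Adipoq, at 3.98 FPKM, and Lep, at 4.72 FPKM, against at most 1.22 and 1.49 FPKM in the other 5 libraries, while Abx3, the library highest for Fabp5, was highest for the adipocyte marker Cfd, at 33.02 FPKM, and for the sum of the 5 adipocyte markers, at 37.6 FPKM against 18 FPKM in Abx1 and at most 11.9 FPKM in the other 4 libraries. Cfd made up most of that Abx3 sum. Adipoq, Lep, Plin1 and Cidec were at 1.12, 1.48, 0.19 and 1.84 FPKM in Abx3, against at most 1.22, 1.49, 0.30 and 1.65 FPKM in Con. Plin1 and Cidec were highest in Abx1, at 0.88 and 5.90 FPKM. The part of adipocytes or macrophages in these values was not tested. Fabp5 exceeded Fabp4 in all libraries, by 7.17-fold to 8.20-fold in Con and by 4.48-fold, 5.65-fold and 19.4-fold in Abx1 to Abx3.

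Acsl4, which favours long polyunsaturated fatty acids, was at 0.89, 0.82 and 5.02 FPKM in Con1 to Con3, against 10.8, 5.73 and 4.40 FPKM in Abx1 to Abx3. The highest Con library lay between the Abx libraries, and the difference was 1.46 with a SE of 0.80 and an interval from -0.41 to 3.32 on the log2(FPKM + 1) scale (limma adjusted p = 0.582). Acsl4 lies on chromosome X (chrX:142317993-142390535, minus strand). Markers of sex differed between the groups, since Xist, the RNA of the inactive X, was at 3.78 to 5.09 FPKM in Con and listed at 0 in all Abx libraries, and the Y-linked Eif2s3y was at 0.03 to 0.86 FPKM across Con, against 11.8 to 24.4 FPKM across Abx. Sex and prenatal antibiotics therefore cannot be told apart for any gene here.

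Scd2, a stearoyl-CoA desaturase (chr19:44293674-44306864, plus strand), was at 8.06, 0.38 and 9.01 FPKM across the 3 Con libraries and 1.28, 0.08 and 0.09 FPKM in the 3 Abx libraries. Con1 and Con3 stood above all Abx libraries, while Con2 lay among them. The difference was -1.85 with a SE of 0.88 and an interval from -3.89 to 0.20 on the log2(FPKM + 1) scale (limma adjusted p = 0.503), and without Con2 it was -2.78. Its paralog Scd1, which alveolar type 2 epithelium also expresses, was at 3.14, 5.89 and 4.96 FPKM in Con1 to Con3, against 29.5, 3.47 and 6.16 FPKM in Abx1 to Abx3 (difference 0.84, limma adjusted p = 0.791), and Scd3 and Scd4 were at 0.04 FPKM or less. Scd1 exceeded Scd2 in 4 of the 6 libraries, by 15.5-fold in Con2 and 23.1-fold to 68.4-fold in Abx. Of the 50-base stretches of Scd2, 4.01% also occur in other genes, the Scd paralogs among them. The 11 markers of alveolar type 2 cells summed to 147 to 433 FPKM across Con, against 238 to 458 FPKM across Abx, with Sftpb and Slc34a2 listed at 0 in all libraries. Lyz2, which myeloid cells also express, held most of this sum, at 101 to 363 FPKM in Con and 170 to 368 FPKM in Abx. Sftpc was higher in every Abx library, at 48.3 to 56.1 FPKM, than in any Con library, at 11.3 to 36.8 FPKM, and Sftpa1 was lower in every Abx library. The part of such cells in the Scd values was not tested.

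Dgat1 and Dgat2, the acyltransferases of the last step of triglyceride synthesis, followed each other across libraries. Dgat1 (chr15:76502015-76511953, minus strand) was at 20.1, 44.5 and 33.8 FPKM across the 3 Con libraries and 29.7, 7.97 and 24.3 FPKM in the 3 Abx libraries. Dgat2 (chr7:99153658-99182719, minus strand) was at 12.1, 25.5 and 18.3 FPKM in Con1 to Con3, against 15.2, 0.18 and 12.3 FPKM in Abx1 to Abx3. In both genes Con2 was highest and Abx2 lowest, while Abx1 and Abx3 lay within the Con range. Dgat1 exceeded Dgat2 by 1.66-fold to 1.85-fold in Con, by 1.95-fold in Abx1 and 1.97-fold in Abx3, but by 44.3-fold in Abx2. Their log2(FPKM + 1) values correlated at r = 0.965 over the 6 libraries and 0.971 without Abx2, a description over points that share library and depth.

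Neither difference was larger than the spread between libraries allowed the test to call. The difference was -0.75 with a SE of 0.58 and an interval from -2.10 to 0.59 for Dgat1 (limma adjusted p = 0.709), and -1.57 with a SE of 1.04 and an interval from -4.00 to 0.86 for Dgat2 (limma adjusted p = 0.663). Without Abx2 these were -0.21 and -0.36. Genes under 1 FPKM in 1 library while at 10 FPKM or more in the other 5 numbered 33 for Abx2, against 108 for Abx1 and 69 for Abx3. Their bearing on the low Dgat2 value in Abx2 was not tested.

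Plin2, the droplet coat protein (chr4:86648386-86670060, minus strand), was at 94.6, 73.6 and 83.5 FPKM across Con, against 57.9, 46.3 and 18.04 FPKM across Abx. All 3 Abx libraries lay below all 3 Con libraries, as did those of 8.73% of the genes tested. The mean was 83.9 ± 10.5 FPKM (SD, n = 3) in Con and 40.7 ± 20.5 FPKM in Abx. The difference was -1.17 with a SE of 0.45 and a 95% interval from -2.21 to -0.13 on the log2(FPKM + 1) scale. Its unadjusted limma p was 0.0325, its limma adjusted p over all 8718 genes was 0.373, and its exact permutation p was 0.1, the smallest this design allows. Plin2 therefore failed the correction. Of the 50-base stretches of Plin2, 4.89% also occur in another annotated gene, Gm12551. Without Abx3 the difference was -0.68. Plin2 stood at percentile 89.7 to 92.4 of detected genes in Con and 59.3 to 82.8 in Abx. The summed ILC2 markers were lower and the summed B and T cell markers higher in the same Abx libraries, as given above. The sums of the 15 macrophage markers overlapped, at 11.9 to 45.8 FPKM across the 3 Con libraries and 8.01 to 67.8 FPKM in the 3 Abx libraries. Single genes held most of the highest sums, Ear1 at 55.3 FPKM in Abx1 and Cd68 at 30.2 FPKM in Con1. Of the 15, 3 lay higher and 0 lower in every Abx library than in every Con library. The part of any of these cell types in the Plin2 difference was not tested.

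**Figure D2:**
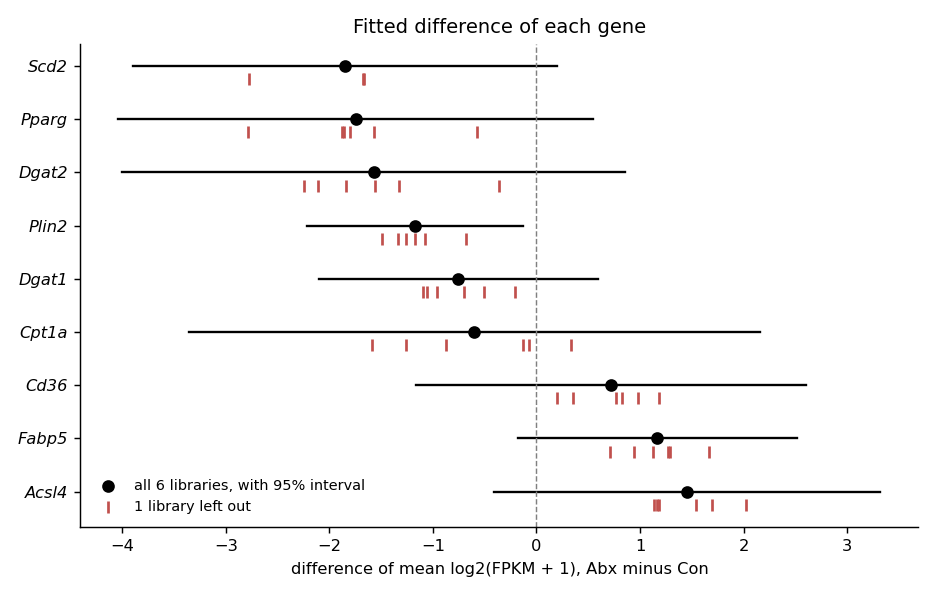
Difference of mean log2(FPKM + 1), Abx minus Con, for the 9 genes (x axis). Black points and lines give the estimate and its 95% interval with all 6 libraries, and red ticks the estimates with 1 library left out. Plin2 has the one interval clear of 0 (-2.21 to -0.13), and Cpt1a is the one gene whose ticks lie on both sides of 0.

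Hilpda, a droplet protein that inhibits triglyceride breakdown, was by far the most abundant gene of the storage list. It was at 3007, 2598 and 3597 FPKM in Con1 to Con3, against 1018, 1532 and 932.5 FPKM in Abx1 to Abx3, without overlap. The difference was -1.42 with a SE of 0.24 and an interval from -1.97 to -0.87, at an unadjusted limma p of 0.000375 and a limma adjusted p of 0.0911. Of the 27 genes of triglyceride synthesis and the droplet, Plin2, Dgat1 and Dgat2 included, 13 were tested and 0 were called. In 11 the difference was below 0, against 53% of all genes tested. At an unadjusted limma p under 0.05, 2 were lower, against 6.25% of all genes tested. Their median difference was -1.14, against -0.06 over all genes tested. Among the perilipins, Plin1, Plin4 and Plin5 reached at most 1.47 FPKM, and Plin3 was at 26.1, 20.8 and 3.04 FPKM across Con, against 0.17, 5.87 and 47.3 FPKM across Abx, an overlap over the whole range.

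Cpt1a, at the gate to mitochondrial oxidation (chr19:3322334-3385733, plus strand), was at 13.8, 0.95 and 15.0 FPKM across the 3 Con libraries and 11.7, 6.45 and 0.40 FPKM in the 3 Abx libraries. Each group held 1 library near or under 1 FPKM, Con2 and Abx3. The difference was -0.60 with a SE of 1.19 and an interval from -3.36 to 2.16 on the log2(FPKM + 1) scale (limma adjusted p = 0.895), and without Abx3 its sign turned, to 0.33. The other carnitine palmitoyltransferase genes Cpt1b, Cpt1c and Cpt2 were listed at 0.22 FPKM or less in all libraries.

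For most other genes of fatty acid oxidation the fitted difference was a little below 0. Of the 24 genes of that list, Cpt1a included, 19 were tested and 0 were called. In 17 the difference was below 0, against 53% of all genes tested. At an unadjusted limma p under 0.05, 2 were lower, against 6.25% of all genes tested. The median difference was -0.50, and in 5 of the 19 all Abx libraries lay below all Con libraries, against 8.73% of all genes tested. Acaa2, the mitochondrial thiolase of the last step, was at 266, 274 and 147 FPKM in Con1 to Con3, against 132, 122.8 and 115 FPKM in Abx1 to Abx3 (difference -0.83, SE 0.29, limma adjusted p = 0.301). Etfb, which passes electrons from the acyl-CoA dehydrogenases to the respiratory chain, was the most abundant of the list, at 297, 266 and 198 FPKM across Con, against 273, 216 and 261 FPKM across Abx (difference -0.01, limma adjusted p = 0.995).

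The remaining lists, which include Pparg, Cd36, Fabp5, Acsl4 and Scd2, held no called gene. Of 19 receptors and regulators, 14 were tested, with 9 differences below 0, against 53% of all genes tested, and a median of -0.80. Nr1h2, the oxysterol receptor LXRβ and the most abundant of them outside Pparg, was at 27.0, 37.9 and 25.4 FPKM across the 3 Con libraries and 45.4, 64.7 and 29.2 FPKM in the 3 Abx libraries (difference 0.56, limma adjusted p = 0.691), with a difference of 0.29 without Abx2 and 0.85 without Abx3. Of 20 genes of uptake and binding, 6 were tested, with 5 differences above 0 and a median of 0.49, which was 0.24 without Abx2 and 0.84 without Abx3. Dbi, the acyl-CoA binding protein, was at 85.6, 73.6 and 88.0 FPKM in Con1 to Con3, against 95.01, 127 and 79.1 FPKM in Abx1 to Abx3, and the fatty acid transport protein gene Slc27a6 was at 10.3, 0 and 2.19 FPKM across Con, against 0.03, 1.65 and 0 FPKM across Abx (difference -1.24, limma adjusted p = 0.698, and -2.10 without Con2).

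Of 9 acyl-CoA synthetase genes, 7 were tested, with 5 differences below 0, against 53% of all genes tested, and a median of -0.33. Acsl3, which is found on growing droplets, was at 4.74, 9.23 and 4.63 FPKM across the 3 Con libraries and 0.14, 3.31 and 0.02 FPKM in the 3 Abx libraries (difference -2.01, limma adjusted p = 0.387), without overlap, so that it lay on the other side of 0 from Acsl4. Acsl5 was at 31.9 to 52.4 FPKM across Con, against 23.1 to 38.0 FPKM across Abx. Of 18 genes of fatty acid synthesis, elongation and desaturation, 5 were tested, with a median of -0.35. Elovl5, an elongase of polyunsaturated fatty acids, was at 109, 100.1 and 141 FPKM across Con, against 68.4, 94.8 and 74.5 FPKM across Abx (difference -0.55, limma adjusted p = 0.503). Of 8 lipolysis genes, 5 were tested, with a median of -0.01, where Faah was at 7.98 to 23.0 FPKM across the 3 Con libraries and 11.0 to 21.8 FPKM in the 3 Abx libraries and Daglb at 0.48 to 4.79 FPKM and 0 to 2.33 FPKM.

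Over the 116 listed genes outside the 9, 60 were tested and 0 were called. At an unadjusted limma p under 0.05, 6 (10%) were lower and 0 higher in Abx, against 6.25% and 4.74% of all genes. All Abx libraries lay below all Con libraries in 12 genes (20%) and above them in 2 (3.33%), against 8.73% and 8.49% of all genes. The difference was below 0 in 71.7% of the 60, against 53.0% of all genes tested, and their median was -0.48. Of the 60, Rxra passed the filter on low values through Con alone. The lists were chosen with earlier results of these data known, so these shares are a description and no test of the lists.

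**Figure D3:**
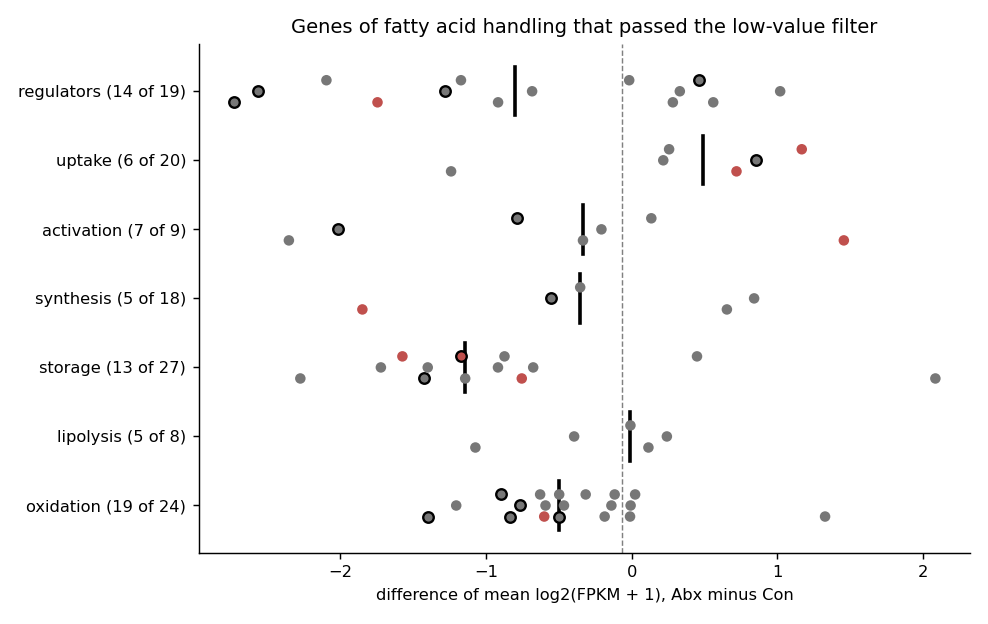
Difference of mean log2(FPKM + 1), Abx minus Con (x axis), of each gene that passed the low-value filter, by list (y axis, with tested and listed numbers). Red points are the 9 genes of the set, ringed points have groups that do not overlap, black bars are list medians, and the dashed line is the median of all 8718 genes (-0.06). The storage list has its median at -1.14 and the uptake list at 0.49.

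The spread between libraries was wider in Abx for these genes, as it was across the series. The median SD of log2(FPKM + 1) over the 9 genes was 0.562 in Con and 0.955 in Abx, against 0.549 and 0.886 over all genes tested, and it was larger in Abx in 6 of the 9, against 70.3% of all genes. A more than 10-fold range within a group was seen in 2 genes in Con, Scd2 (23.7-fold) and Cpt1a (15.8-fold), and in 4 in Abx, Pparg (28.6-fold), Dgat2 (84.4-fold), Scd2 (16-fold) and Cpt1a (29.2-fold). The low library was not the same in each, being Abx1 for Pparg, Abx2 for Dgat2 and Abx3 for Cpt1a. Scd2 was near 0 in both Abx2 and Abx3, at 0.08 and 0.09 FPKM, and at 1.28 FPKM in Abx1.

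The genes whose log2(FPKM + 1) most resembled Pparg over the 6 libraries were Clptm1l (r = 0.995), the pseudogene Eif3s6-ps2 (0.994) and Tnfrsf18 (0.993), which encodes the receptor GITR. Those most like Plin2 were Rab22a (0.995), Ldah (0.993) and Ino80c (0.990). Ldah, a hydrolase of the lipid droplet, was at 16.3, 9.95 and 17.6 FPKM in Con1 to Con3, against 5.85, 4.06 and 0.03 FPKM in Abx1 to Abx3. These are the top of 8718 correlations over 6 points that share library and depth, and are given as a description.

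**Figure D4:**
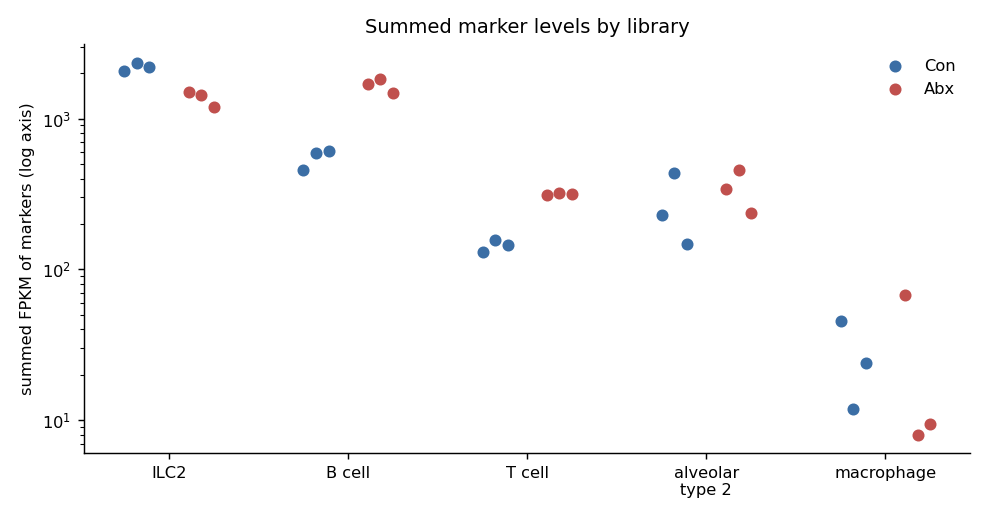
Summed FPKM (y axis, log scale) of 5 marker lists in each library, Con in blue and Abx in red. The ILC2 sum is lower in Abx (1198 to 1503 against 2078 to 2350 FPKM), the B cell and T cell sums are higher, and those of alveolar type 2 cells and macrophages overlap.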

How the data were processed

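The deposited values are FPKM per gene, which the authors computed in StringTie from reads trimmed by Cutadapt and aligned by HISAT2. Their methods name a human Ensembl annotation while the identifiers are those of mouse, 55134 of 55394 being in GENCODE M21 (GRCm38), and the submitters' processing notes name Bowtie 0.12.2 with mm8 and mm9, so the build was not settled. FPKM does not hold read counts, and depth is unknown. FPKM summed to 420941 to 489262 per library. The 3 Abx and 3 Con libraries were compared in limma 3.58.1 (R 4.3.3, empirical Bayes with trend, two-sided, Benjamini-Hochberg over all genes tested) on log2(FPKM + 1), which understates changes of low genes. Genes at 1 FPKM or more in at least 3 of 6 libraries were tested, and calls needed more than a 2-fold difference together with an adjusted p below 0.05, as in the study. The fit was tested on simulated data. The exact permutation test was two-sided. The genes and lists were chosen with earlier results of these data known. Beside the 9 genes, the text names from each list the most abundant tested gene and the one with the smallest p, any called gene, the 3 genes most like Pparg and Plin2, close paralogs and the sex-linked markers, and further genes named after their values were seen are the RXR partners, other PPARs, perilipins and carnitine palmitoyltransferases, adipocyte hormones and members of the marker lists. Alternatives covered the pseudocount, scaling, filter, variance estimate, replicate number as a block and each library left out.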

Additional observations from a re-analysis of the deposited data

How the results depend on the processing

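None of the 9 genes was called under any alternative. Of 129 refits of their differences, 128 kept the direction and 1 turned, Cpt1a at 0.33 without Abx3 in a range from -1.59, and the smallest limma adjusted p in any refit was 0.154. A minimum mean of 5 FPKM removed 3 of the 9, Cd36, Scd2 and Acsl4. Over all genes, the 5 called became 0 with a pseudocount of 0.1 or 0.01, with each library centred on its median, with no filter and with the replicate block, and 0 to 2 with 1 library left out. In all these cases the cause was not tested.

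With the replicate number as a block, 0 genes were called. Deviations of same-numbered libraries from their group means correlated at -0.02, -0.03 and 0.01 for numbers 1 to 3. Libraries of other numbers correlated at -0.03 to 0.05. Whether the numbers pair the libraries was not given, and 3 libraries per group cannot settle it.

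Among single genes, Faah and Etfb, at -0.01 each, turned to 0.014 and 0.015 with centring, and ranged from -0.45 to 0.26 and from -0.17 to 0.12 with 1 library left out. Pseudocounts of 0.1 and 0.01 took the list medians to -1.43 and -1.61 for regulators, -0.82 and -0.82 for activation, and -1.42 and -1.42 for storage, while the median of all genes was -0.15 and -0.17. Quantile normalization gave -0.28 for regulators, -0.49 for activation and -0.88 for storage. Without a filter the medians were 0.0012 for regulators, 0.024 for uptake and -0.67 for storage, and with a mean of at least 5 FPKM they were -0.79 for activation and 0.15 for synthesis. With 1 library left out, the medians ran from -1.26 to -0.36 for the 9 genes, from -0.83 to -0.054 for regulators, from 0.24 to 0.84 for uptake, from -0.82 to -0.39 for activation, from -0.52 to 0.13 for synthesis, from -1.29 to -0.84 for storage and from -0.57 to -0.27 for oxidation. The number of libraries limits all of these, and the reads behind each value are unknown.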

Other observations

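Genes under the filter on low values were not compared by the model, but 18 of the 56 listed ones reached 1 FPKM in some library, and 2 of these (11.1%) had every Abx library above every Con library, against 3.07% of all 4234 such genes. Abhd5, the coactivator of the triglyceride lipase of the droplet, was at 0.03, 0.02 and 0.07 FPKM across Con, against 0.19, 4.35 and 12.6 FPKM across Abx. Acox3, a peroxisomal acyl-CoA oxidase, was at 0, 0.04 and 0.13 FPKM across the 3 Con libraries and 0.17, 8.34 and 4.84 FPKM in the 3 Abx libraries. In both genes Abx1 stayed near Con, and only Abx2 and Abx3 reached 1 FPKM. Both thus entered the count through the group in which they were high. The opposite direction was not counted, so the share is a description and no test. Uptake genes that were near 0 in all libraries included Fabp1 and Fabp3, at most 0.06 FPKM, and Vldlr, at most 0.28 FPKM. Slc27a1 and Slc27a4 passed 1 FPKM in a single library, Con3, at 4.72 and 2.71 FPKM. These genes were chosen after their values were seen.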
